A study of Mus musculus with 4 samples.

Results

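The mitochondrial ribosomal protein genes were taken as the 77 rows of the count table whose symbol is Mrpl or Mrps followed by a number and at most one letter, out of 24421 rows. All 77 were abundant enough to be tested, among 12656 genes tested in all. Lymphatic endothelial cells positive for CD31 and GFP and negative for CD45 were sorted from mouse lungs at postnatal day 0. The Jun-Ctrl mice were Prox1-CreER;Junf/+;Rosa26-mTmG, so they carried 1 floxed Jun allele, and the Jun-cKO mice were Prox1-CreER;Junf/f;Rosa26-mTmG, with both alleles floxed. Both groups carried the inducible Cre driven by Prox1, the transcription factor that sets lymphatic identity, and the mTmG reporter, which turns from red to green where Cre has acted, so no group was free of Cre or carried intact Jun on both alleles. The sources used here do not give the inducing agent or its timing, and the series' design text names a Prox1-GFP line in place of the reporter. Each group had 2 libraries. Cells of 3 to 5 mice were pooled per group and cells of 3 replicates were mixed before the RNA was amplified, so the p-values rest on differences between libraries of a group that may be technical alone. The comparison asks how gene expression in these cells differs where Jun, a subunit of the AP-1 transcription factor, is to be deleted.

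The mitochondrial ribosome translates the few messenger RNAs encoded by mitochondrial DNA, all of which specify hydrophobic subunits of the respiratory chain and the ATP synthase. Its ribosomal RNAs come from the mitochondrial genome, but every protein is encoded in the nucleus, made in the cytosol and imported. The small subunit decodes the messenger RNA and the large subunit joins the amino acids and holds the exit tunnel. Some of the proteins descend from those of the bacterial ribosome, and others were added in the mitochondrial lineage and have no bacterial counterpart. The symbols keep older names, so that Mrps30 and Mrps18a belong to the large subunit, Mrps36 is now placed in a dehydrogenase complex, and mitoribosomal proteins named otherwise, such as Dap3, are not among the 77.

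The libraries held 16037416 and 6483514 counts in Jun-Ctrl and 15558476 and 6911821 counts in Jun-cKO. Levels below are TMM-scaled CPM, the count of a gene relative to all counts of its library, and changes are log2 fold changes of Jun-cKO minus Jun-Ctrl, in which 1 is a doubling. A gene was called higher or lower, and is said to have risen or fallen, where edgeR's quasi-likelihood test gave a Benjamini-Hochberg adjusted p under 0.05 over all tested genes. Jun itself stood at 472 and 433 CPM in Jun-Ctrl and at 524 and 475 CPM in the libraries labelled Jun-cKO, which is 0.14 on the log2 scale (SE 0.12, edgeR quasi-likelihood adjusted p = 0.354). The targeted transcript was therefore not lower in the libraries labelled Jun-cKO, and after a correction for base composition it was higher (0.43, edgeR adjusted p = 0.00221). The sources used here do not say how much of Jun is floxed, and every direction below follows the labels.

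The lymphatic markers Prox1, Lyve1 and Flt4 were expressed in all libraries, and Ccl21a was listed at 0. Of 9 tested lymphatic markers 3 rose and 1 fell, of 8 pan-endothelial markers 2 rose and 1 fell, and of 7 blood endothelial markers 4 rose and 2 fell. The summed level of the lymphatic markers was 16451 and 15677 CPM in Jun-Ctrl against 20767 and 20966 CPM in Jun-cKO. Their median level was 1414 and 1499 against 1201 and 1009 CPM. The sums were 3005 and 3298 against 3391 and 3599 CPM for pan-endothelial markers. For blood endothelial markers they were 971 and 1005 against 1184 and 1169 CPM. Most markers of non-endothelial lung cells were lower in the libraries labelled Jun-cKO. Of 19 tested lung epithelial markers, 18 fell, and their summed level was 1841 and 1950 CPM in Jun-Ctrl against 213 and 209 CPM in the libraries labelled Jun-cKO. All 10 tested immune markers fell (summed level 499 and 494 against 217 and 195 CPM, with Cd3e at 0), as did 7 of 10 tested mesenchymal markers (333 and 336 against 107 and 113 CPM). Of the 4 tested mesothelial markers, 2 fell and 1 rose. Their summed level was 285 and 263 CPM in Jun-Ctrl against 316 and 334 CPM in the libraries labelled Jun-cKO. Of 4 tested erythroid and platelet markers 2 fell and none rose, with a summed level of 60.6 and 58.3 against 69.7 and 63.9 CPM. The hemoglobin genes Hba-a1, Hba-a2, Hbb-bs and Hbb-bt were at 0. Among all tested genes 19% rose and 22.5% fell. The part of these markers in the results on mitoribosomal genes was not tested. In sorted pools, fewer cells of a type and less RNA per cell cannot be told apart.

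Most mitoribosomal genes were not called in either direction. Of the 77, 11 rose and 4 fell, and 62 were not called. The 11 that rose make up 14.3% of the members, against 19% of all tested genes called higher, and the 4 that fell make up 5.19%, against 22.5% of all tested genes called lower. The median log2 fold change of the 77 was 0.09, with quartiles of -0.07 and 0.22, while the median of all tested genes was 0.01, with quartiles of -0.42 and 0.31. Of the 77, 48 lay above 0 and 29 below, beside 6370 above and 6286 below among all tested genes. Within 1.2-fold of no change lay 55 of the 77 and 4975 of the 12656 tested genes. Calls of at least 1.5-fold were made for 2 members in each direction, which is 2.6% of the members each way, against 8.23% of all tested genes higher and 17.2% lower. Among genes whose mean level lay within the quartiles of the members' levels, 42.7% of 2811 genes were called in either direction, and 8 of the 39 members there, 20.5%, were called.

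**Figure D1:**
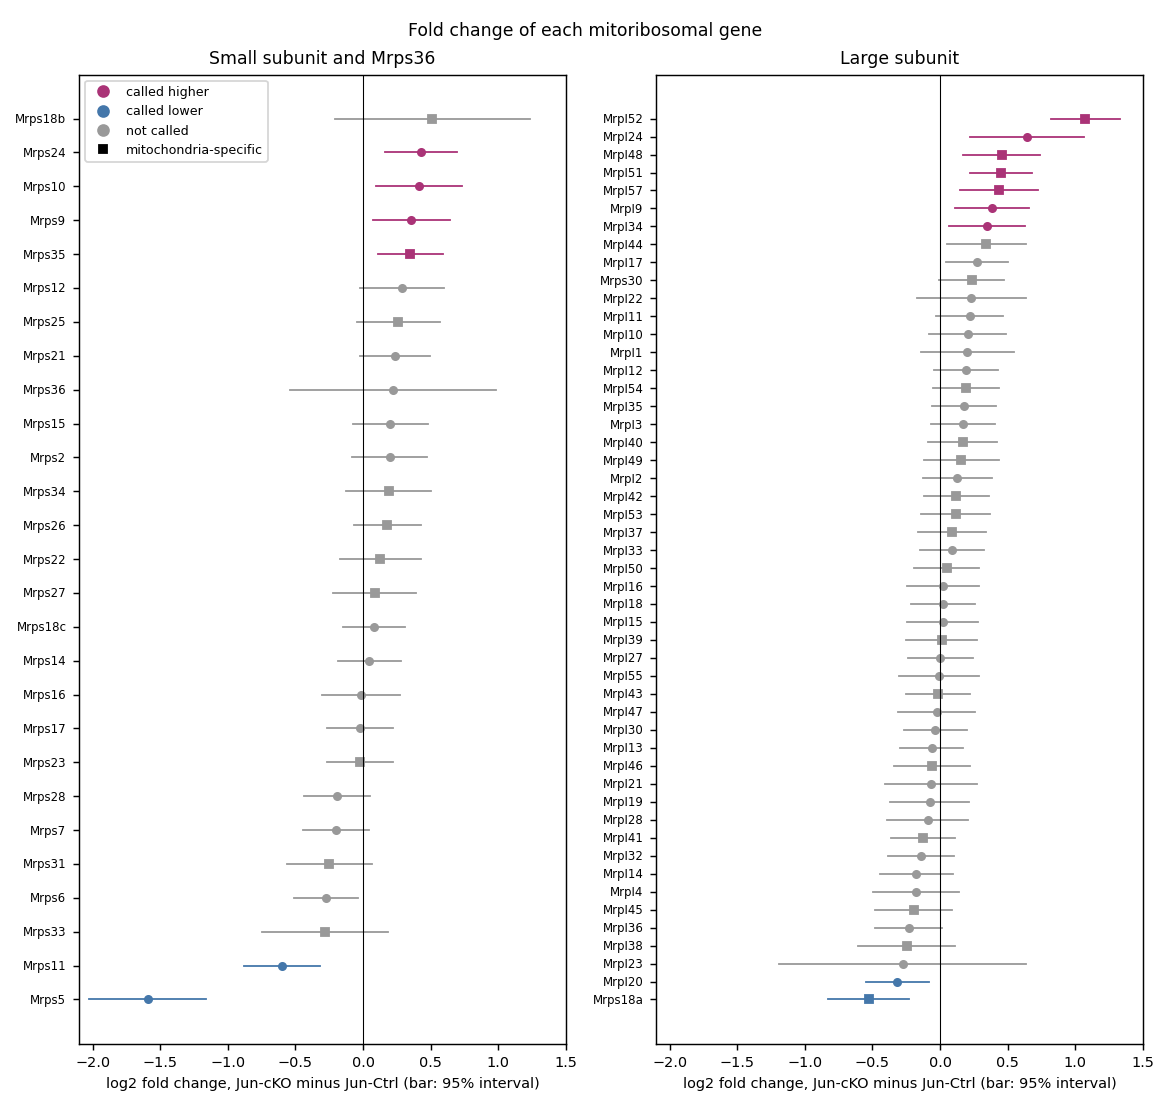
Log2 fold change of each of the 77 mitoribosomal genes (horizontal axis) with its 95% interval as a bar, by gene, split into panels. Filled circles show bacterial homologues and Mrps36, and squares show proteins classed as mitochondria-specific, Mrps18a and Mrps18b among them, coloured by call. Most genes lie close to 0, Mrps5 stands lowest at -1.59 and Mrpl52 highest at 1.07.

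The summed share of the raw counts, taken without TMM scaling, differed little between libraries. The 77 genes took 0.454% of the counts in the first Jun-Ctrl library (95% Wilson interval 0.450 to 0.457) and 0.476% in the second (0.471 to 0.482). They took 0.469% (0.466 to 0.472) and 0.476% (0.471 to 0.481) in the libraries labelled Jun-cKO. The intervals cover counting error only, as the RNA was amplified and no molecular identifiers were used. The 2 groups overlapped in this share, and the 2 Jun-Ctrl libraries differed more from each other than the mean of one group from that of the other. With TMM scaling the groups did not overlap. The summed level was then 4411 and 4726 CPM in Jun-Ctrl and 4781 and 4860 CPM in the libraries labelled Jun-cKO. Counts of large-subunit genes exceeded those of small-subunit genes 2.11 and 2.12 times in Jun-Ctrl and 2.18 and 2.30 times in Jun-cKO. This ratio was higher in both libraries labelled Jun-cKO. With 2 libraries against 2, a two-sided exact permutation p cannot fall below 0.333, which is the value reached. Summed counts give abundant genes the most weight. Mrpl52 of the large subunit (log2 1.07) and Mrps6 of the small subunit (log2 -0.27, not called) both change in the direction that raises the ratio. How far it rests on them was not tested. Medians by gene did not point the same way, at log2 0.11 for the small subunit and 0.07 for the large. The ratio does not show a shift of one subunit as a whole.

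Mrps5, the counterpart of the bacterial small-subunit protein S5 that lies near the entry of the messenger RNA channel, fell most. It stood at 15.8 and 17.4 CPM in Jun-Ctrl and at 6.36 and 3.99 CPM in Jun-cKO, from 261, 114, 97 and 27 counts in that order. The groups did not overlap, and the fold change was 3.02-fold lower (log2 -1.59, SE 0.21, edgeR quasi-likelihood adjusted p = 4.96e-08). The call held in all 15 alternative analyses, with log2 fold changes from -2.04 to -1.36. Mrps5 (ENSMUSG00000027374) lies on chromosome 2 from 127587222 to 127606829 on the forward strand of GRCm38, and 8.6% of its read-length words also occur in the gene model Gm13328. Of the 68 members with a promoter window in RefSeq (GRCm38.p6, 250 bases before to 50 bases after the gene start), 3 hold the AP-1 letters TGANTCA, the sequence bound by dimers that contain Jun, and Mrps5 is one of them. The stretches around the 3 matches are shown because Jun is the gene the study targets, with the match in capitals and each read 5′ to 3′ on the gene's strand.
Mrps5, chr2:127587232-127587260, forward strand: gaggctgagccTGACTCAgtttcctctgt
Mrps25, chr6:92184197-92184225, reverse strand: agttttcccttTGAATCAacagcgacttt
Mrpl33, chr5:31613855-31613883, forward strand: caataaatcacTGAGTCAgagactgcccg
The match begins 183 bases before the RefSeq start of Mrps5, at a place that GENCODE release M21 annotates as the untranslated part of its first exon. Mrps25 and Mrpl33, the genes with the other matches, were not called, at log2 fold changes of 0.26 and 0.09. AP-1 letters stood in 4.05% of the 74 member windows and in 7.81% of all 32851 windows.

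Mrpl52, a large-subunit protein found only in mitochondrial ribosomes, rose most. Its level was 55.9 and 72.2 CPM in Jun-Ctrl and 144 and 122 CPM in Jun-cKO. Both libraries labelled Jun-cKO lay above both Jun-Ctrl libraries, and the fold change was 2.11-fold higher (log2 1.07, SE 0.13, edgeR quasi-likelihood adjusted p = 1.68e-09). The call held in all 15 alternatives, from 0.87 to 1.23 on the log2 scale. Mrpl52 (ENSMUSG00000010406) lies on chromosome 14 from 54426909 to 54429756 on the forward strand, overlaps no other annotated exon and shares no read-length word with another gene. The 250 bases before its RefSeq start are shown because it was the member with the largest rise. They overlap no annotated exon, and the capitals mark the ETS letters CCGGAAG on the reverse strand, 47 bases before the start. A second such match begins at the third base after the start.
Mrpl52, chr14:54426659-54426908, forward strand: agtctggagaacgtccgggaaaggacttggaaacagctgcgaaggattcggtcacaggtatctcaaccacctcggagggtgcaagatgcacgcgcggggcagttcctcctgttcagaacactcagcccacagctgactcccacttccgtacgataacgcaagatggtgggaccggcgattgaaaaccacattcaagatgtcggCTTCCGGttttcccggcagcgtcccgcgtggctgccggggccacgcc

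Mrps11, the counterpart of bacterial S11 on the platform of the small subunit, was lower in both libraries labelled Jun-cKO. It stood at 48.6 and 57.2 CPM in Jun-Ctrl and at 37.8 and 30.9 CPM in Jun-cKO. The difference was 1.51-fold (log2 -0.60, SE 0.14, edgeR quasi-likelihood adjusted p = 0.000553) and was called in all 15 alternatives, although it shrank to -0.34 with the correction for base composition. Mrps11 (ENSMUSG00000030611, chromosome 7, 78783119 to 78792989, forward strand) starts head to head with Mrpl46, a large-subunit gene on the opposite strand. The exons of the 2 genes overlap by 8.0% of the exon bases of Mrps11 and 12.2% of those of Mrpl46, and without strand in the libraries the reads there cannot be told apart. Mrpl46 stood at 38.3 and 40.2 CPM in Jun-Ctrl and at 35.4 and 40.2 CPM in Jun-cKO, and was not called (log2 -0.06, edgeR adjusted p = 0.754). The Mrps11 window holds the YY1 letters AAGATGGCG on the strand opposite to Mrps11, 108 bases before its RefSeq start and within an exon of Mrpl46 in GENCODE, shown with the match in capitals because it was the one motif match of a called gene that lies inside another member's exon.
Mrps11, chr7:78783013-78783041, forward strand: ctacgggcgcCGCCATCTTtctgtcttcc

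The other 2 genes that fell both belong to the large subunit. Mrps18a, 1 of 3 paralogues of bacterial S18, stood at 35.0 and 38.9 CPM in Jun-Ctrl and at 26.7 and 23.9 CPM in Jun-cKO, without overlap (log2 -0.53, SE 0.15, edgeR quasi-likelihood adjusted p = 0.0037). Its call was lost with each of the 3 corrections for base composition, where the log2 fold change was between -0.31 and -0.26. Mrps18c, the paralogue that holds the bacterial position, was not called at 122 and 123 against 128 and 131 CPM (log2 0.08), and with the correction for base composition it was at -0.04. Mrps18b, which occupies a place of its own in the small subunit, was near the limit of detection at 3.03 and 1.53 against 2.42 and 5.46 CPM (log2 0.51, edgeR adjusted p = 0.259), and some of its read-length words occur elsewhere. The 3 paralogues were not compared with each other by a test. Mrpl20, the counterpart of a bacterial protein needed to start large-subunit assembly, stood at 128 and 142 CPM in Jun-Ctrl and at 107 and 109 CPM in Jun-cKO (log2 -0.32, edgeR adjusted p = 0.0246). Its call was lost with DESeq2 and without any of 3 of the libraries, Jun-Ctrl 1, Jun-Ctrl 2 or Jun-cKO 1.

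The other 10 genes that rose did so by between 1.27-fold and 1.56-fold. Mrpl51, a mitochondria-specific large-subunit protein, was the steadiest of them, at 101 and 104 CPM in Jun-Ctrl and 138 and 143 CPM in Jun-cKO (log2 0.45, SE 0.12, edgeR quasi-likelihood adjusted p = 0.00147). It lost its call in 1 of 15 alternatives, the one without Jun-Ctrl replicate 1. Mrps35, a mitochondria-specific small-subunit protein, went from 73.7 and 74.8 CPM to 93.9 and 95.5 CPM (log2 0.35). Its call was lost in 5 of the 15 alternatives, the 3 with GC corrections (0.22 with GC alone) and those without either Jun-Ctrl library. Mrps24, the counterpart of bacterial S3 at the messenger RNA entry, went from 52.6 and 73.9 CPM to 80.1 and 88.4 CPM (log2 0.43).

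**Figure D2:**
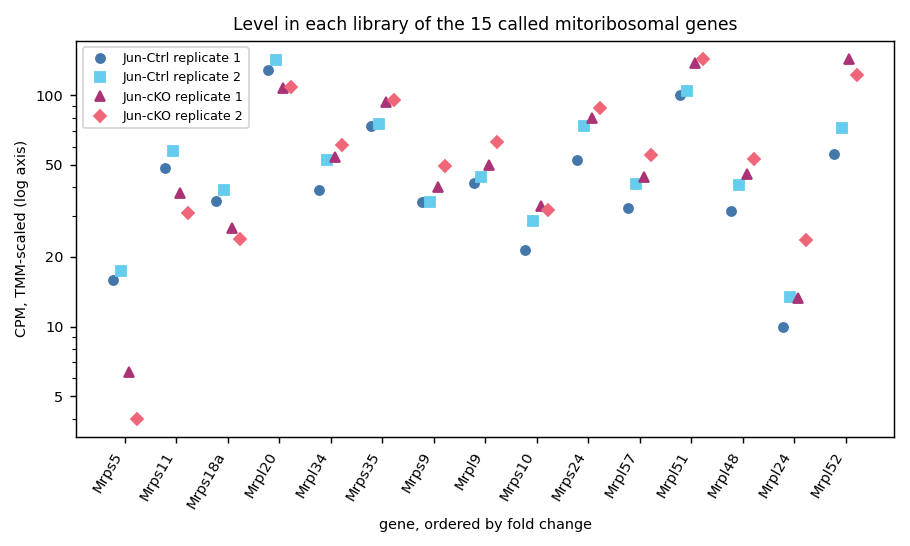
Level of the 15 called mitoribosomal genes in each of the 4 libraries, in CPM on a log axis, with genes ordered by fold change. In Mrpl24 the groups overlap, and in the other 14 genes the 2 libraries of each group lie on separate sides.

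In Mrpl48, Mrpl57, Mrps10, Mrpl34 and Mrps24 the spread within Jun-Ctrl was wide, with the first library the lower one. Mrpl48, of the central protuberance, stood at 31.5 and 41.0 CPM in Jun-Ctrl and at 45.5 and 52.9 CPM in Jun-cKO (log2 0.46). Mrpl57 stood at 32.6 and 41.3 against 44.2 and 55.2 CPM (0.43), Mrps10 at 21.3 and 28.6 against 33.2 and 31.9 CPM (0.41), and Mrpl34 at 38.8 and 52.6 against 54.1 and 60.8 CPM (0.35). None of these was called without Jun-Ctrl replicate 1. Mrpl9 (41.7 and 44.2 against 50.2 and 62.6 CPM, 0.38) and Mrps9 (34.7 and 34.4 against 40.0 and 49.5 CPM, 0.36) showed the wide spread in Jun-cKO instead. Mrps9 kept its call in 5 of the 15 alternatives, and its log2 fold change was 0.13 with the GC correction. Without Jun-Ctrl replicate 1, of the 11 that rose only Mrpl52 kept its call, and 3 of the 4 that fell kept theirs. Without Jun-cKO replicate 2, 7 members in all were called higher. Leaving out either of the other 2 libraries gave 8 and 12 called higher.

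The count of genes that rose also depended on the scaling and the tool. Scaling by DESeq2 size factors left 11 called higher and 4 lower, while scaling by upper quartiles or by library totals gave 8 called higher and 5 called lower in each case. The DESeq2 Wald test called 3 higher, Mrpl52, Mrpl51 and Mrps35, and 3 lower, Mrps5, Mrps18a and Mrps11. The fold changes of all tested genes fell with the GC content of the transcript (Spearman's rho = -0.34 across 12188 genes), while among the 77 members the relation was weaker (rho = -0.13). Genes within a library share its amplification and depth and are not independent replicates. With a correction for GC content, 20 members were called higher, 26% against 20.8% of all tested genes, and 5 lower, 6.49% against 19.2%. Of the 11 that rose, 7 kept their call, and Mrps9, Mrps10, Mrps35 and Mrpl57 lost it. Among those called higher only with the correction, the values after it were highest in Mrpl54 (log2 0.19 before and 0.73 after), Mrps34 (0.19 and 0.70), Mrps12 (0.29 and 0.62) and Mrpl2 (0.13 and 0.54). Mrpl14 (-0.17 before and 0.31 after) and Mrpl28 (-0.09 and 0.35) turned from below 0 to called higher. After that correction the fold changes of the members rose with GC content (rho = 0.50), while those of all tested genes did not vary with it (rho = 0.00). With a correction for GC content and length, 10 members were called higher, 13% against 21.3%, and 7 lower, 9.09% against 17.9%. Without any test, 32 members, 41.6%, had both Jun-cKO libraries above both Jun-Ctrl libraries, against 35.4% of all tested genes, and 14 members, 18.2%, had both below, against 35.9%.

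**Figure D3:**
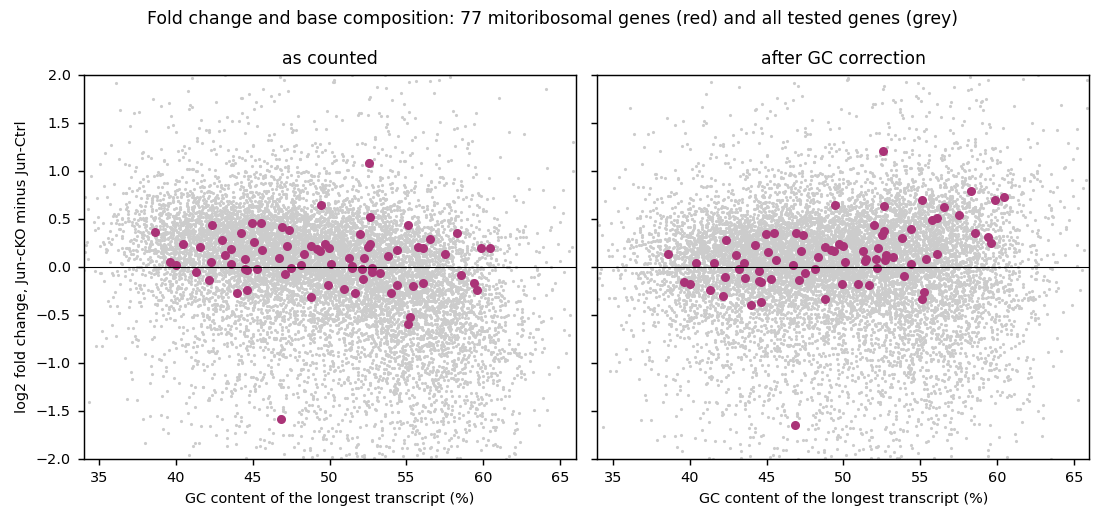
Log2 fold change against GC content of the longest transcript, as counted and after the GC correction, for the 77 mitoribosomal genes in red and all tested genes with a GC content in grey. The grey cloud slopes down as counted and is level after correction, while the red points slope up after correction; 588 genes lie outside the axes as counted.

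By subunit, the 26 small-subunit members gave 4 genes that rose and 2 that fell, with a median of 0.11 on the log2 scale, and the 50 large-subunit members gave 7 and 2, with a median of 0.07. The 46 members classed as having a bacterial counterpart gave 6 that rose and 3 that fell (median 0.02). The 30 members classed as mitochondria-specific gave 5 and 1 (median 0.12). The S18 paralogues Mrps18a and Mrps18b were counted in this second class, and Mrps18a is the 1 that fell. Mrps36, which stands outside both subunits, was not called (log2 0.22). Among all tested genes 19% rose and 22.5% fell. The subunits and classes were set side by side without a test. In the stalk that recruits elongation factors, Mrpl10, Mrpl11 and Mrpl12 lay at log2 fold changes of 0.20, 0.22 and 0.19 and were not called, while Mrpl10 and Mrpl12 were called higher with the GC correction. At the exit of the tunnel, Mrpl24 has 26.3% of its exon bases opposite exons of Rrnad1, where reads without strand cannot be told apart. Mrpl24 rose, from 9.95 and 13.5 CPM to 13.3 and 23.6 CPM (log2 0.64, edgeR quasi-likelihood adjusted p = 0.011), with overlapping groups. Its call was lost with DESeq2 and when either Jun-Ctrl replicate 1 or Jun-cKO replicate 2 was left out, and without the latter the value was 0.25. The other 6 tunnel-exit members were not called, at log2 values of 0.27 in Mrpl17, 0.23 in Mrpl22, -0.28 in Mrpl23, -0.14 in Mrpl32, -0.20 in Mrpl45 and -0.03 in Mrpl47. In the central protuberance, where the subunits meet, Mrpl48 rose, and Mrpl18 (0.02), Mrpl38 (-0.25), Mrpl40 (0.17) and Mrpl46 were not called. Mrps12, the decoding-centre protein in which bacterial streptomycin resistance arises, stood at 27.6 and 23.6 CPM against 34.8 and 27.6 CPM (0.29) and was called only with GC corrections among the alternatives that kept all libraries.

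Levels per length spanned 2 orders of magnitude, in much the same order in each library. In RPKM, which divides the CPM by the deposited gene length in kilobases, the highest means over the 4 libraries were 264 for Mrpl33, 251 for Mrps18c, 239 for Mrps6 and 239 for Mrpl52. Mrpl33 ranged from 246 to 296 RPKM and Mrps6 from 195 to 274 RPKM, so these neighbours overlapped. The leading gene per length differed by group. Mrps6 was highest in both Jun-Ctrl libraries, at 251 and 274 RPKM. Mrpl52 was highest in both libraries labelled Jun-cKO, at 349 and 296 RPKM, after 136 and 175 RPKM in Jun-Ctrl. This order rests on the deposited lengths, which are 412 bases for Mrpl52 and 780 for Mrps6. In CPM, Mrps6 was highest in all 4 libraries, at 196 and 214 CPM in Jun-Ctrl and 186 and 152 CPM in Jun-cKO. The lowest means were 2.18 for Mrpl23, 2.96 for Mrps18b, 3.21 for Mrps36 and 4.63 for Mrps25, and Mrps18b, at 1.45 to 5.19 RPKM, overlapped each of the other 3 in range. Ranks of the 77 genes correlated between any 2 libraries with a Spearman's rho of 0.97 to 0.99 across genes. Reads of similar copies bear on some of these levels. Of the read-length words of Mrpl53, 72.9% occur in another gene, as do 36.8% of those of Mrps34, 26.0% of Mrps18b, 25.8% of Mrpl22 and 23.9% of Mrps36. Of the exon bases of Mrps25, 69.8% lie opposite exons of Nr2c2. Of those of Mrps34, 63.4% lie opposite exons of Mapk8ip3, and 37.0% overlap exons of Nme3 on the same strand. Among the highest genes per length, 23.2% of the exon bases of Mrps18c overlap exons of Gm43511 on the same strand. Exons of Gm49711 and Slc5a3 each overlap at most 19.9% of those of Mrps6 on the same strand, and 6.2% of its read-length words occur in Gm49711.

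**Figure D4:**
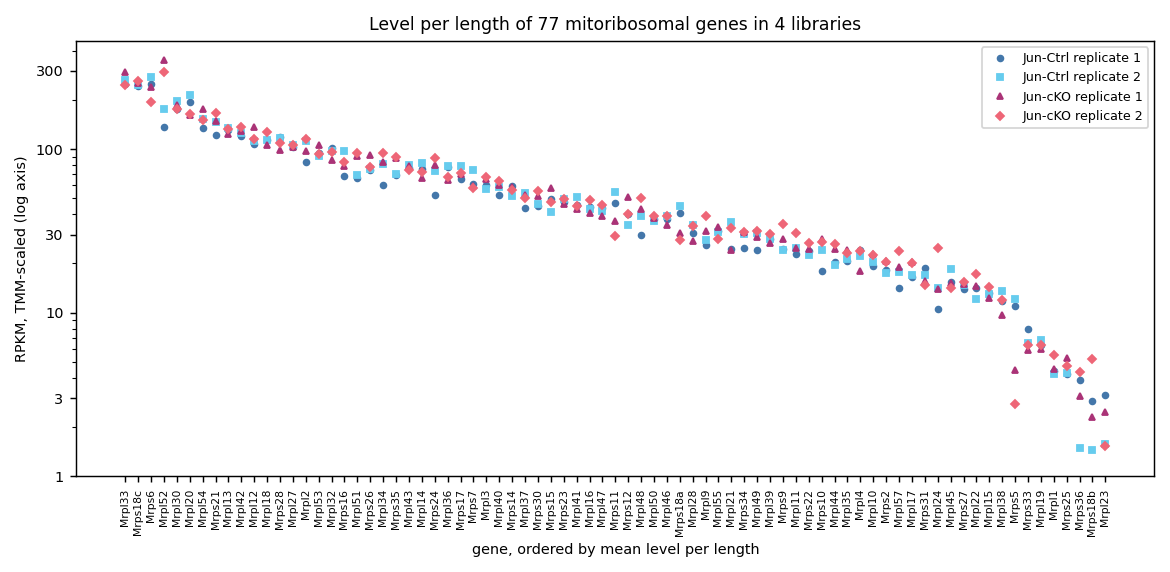
Level per length of the 77 mitoribosomal genes in RPKM on a log axis, 1 point per library, with genes ordered by their mean. The 4 libraries lie close together for most genes, and Mrpl52 shows the groups apart, at 136 and 175 against 349 and 296 RPKM.

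Promoter windows of the members were searched for the letters of regulators known for nuclear mitochondrial genes, beside all windows of the same length. NRF-1, an activator of respiratory genes, binds GCGCATGCG, which stood in 7 of 74 member windows on either strand, 9.46% against 1.75% of all windows. The ETS letters CCGGAAG, bound by GABP, stood in 25 windows, 33.8% against 8.86%. YY1 letters stood in 8 windows, 10.8% against 1.4%. Mrpl4, Mrpl13, Mrpl15, Mrpl19, Mrpl38, Mrpl54, Mrps28, Mrps34 and Mrps35 had no window and were not searched. These shares were not tested, and a YY1 match can overlap an ETS match in its AAG. The CRE letters TGACGTCA stood in 2.7% against 1.79%, and the E-box CACGTG, which Myc binds, in 9.46% against 7.15%. Of the 25 genes with ETS letters, 5 rose (Mrpl52, Mrpl51, Mrpl48, Mrpl57 and Mrpl34) and 1 fell (Mrps18a), beside 19% of all tested genes that rose and 22.5% that fell. Of the 7 with NRF-1 letters only Mrpl9 was called, and its window is shown with the match in capitals, 28 bases before the start.
Mrpl9, chr3:94443298-94443326, forward strand: aggcgcagctGCGCATGCGcggggtcctt

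Among 6 tested mitoribosomal proteins with other symbols, 1 was called, beside 19% of all tested genes called higher and 22.5% called lower. Gadd45gip1, a large-subunit protein that also bears the name CRIF1 and is required for the mitochondrial ribosome to insert its products, rose from 27.0 and 39.0 CPM to 62.6 and 76.5 CPM. The fold change was 2.14-fold higher (log2 1.10, SE 0.15, edgeR quasi-likelihood adjusted p = 3.33e-08). The other 5 tested proteins of that list were not called, among them Dap3 at -0.13 and Ict1, the rescue factor built into the large subunit, at 0.07.

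Genes that build and serve the mitochondrial ribosome were called in both directions, beside 19% of all tested genes called higher and 22.5% called lower. Of 27 tested assembly factors, 9 rose and 4 fell, and the median was 0.12 on the log2 scale. Malsu1, which keeps immature large subunits from joining, rose (0.77, from 55.6 and 56.1 to 98.7 and 90.6 CPM), as did Mterf4 (0.40), and the GTPase gene Mtg2 (-1.20) and Wbscr16 (-0.91) fell. Of 17 translation factors, 3 rose and 1 fell (median 0.11). The release factor Mtrf1l rose (1.05, from 16.7 and 12.9 to 30.3 and 32.8 CPM), and Tufm, the elongation factor that delivers charged tRNA, fell (-0.96, from 16.2 and 24.3 to 8.13 and 13.0 CPM).

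Of 22 mitochondrial tRNA synthetase genes and their partners, 2 rose and 5 fell (median -0.06). Among all tested genes 19% rose and 22.5% fell. Lars2, which charges leucine tRNA, fell from 104 and 105 CPM to 47.1 and 45.2 CPM (-1.18), and Sars2 fell by 1.45 on the log2 scale. Hars2 (0.67) and Ears2 (0.60) rose. Of 23 genes of mitochondrial DNA transcription and RNA processing, 6 rose and 4 fell (median 0.21). Polrmt, the mitochondrial RNA polymerase, fell (-1.14, from 16.3 and 25.7 to 8.72 and 9.89 CPM), as did Fastk (-1.61), while the RNA-degrading Pnpt1 (0.66) and Trmt10c (0.61), of the enzyme that cuts tRNA 5′ ends, rose.

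**Figure D5:**
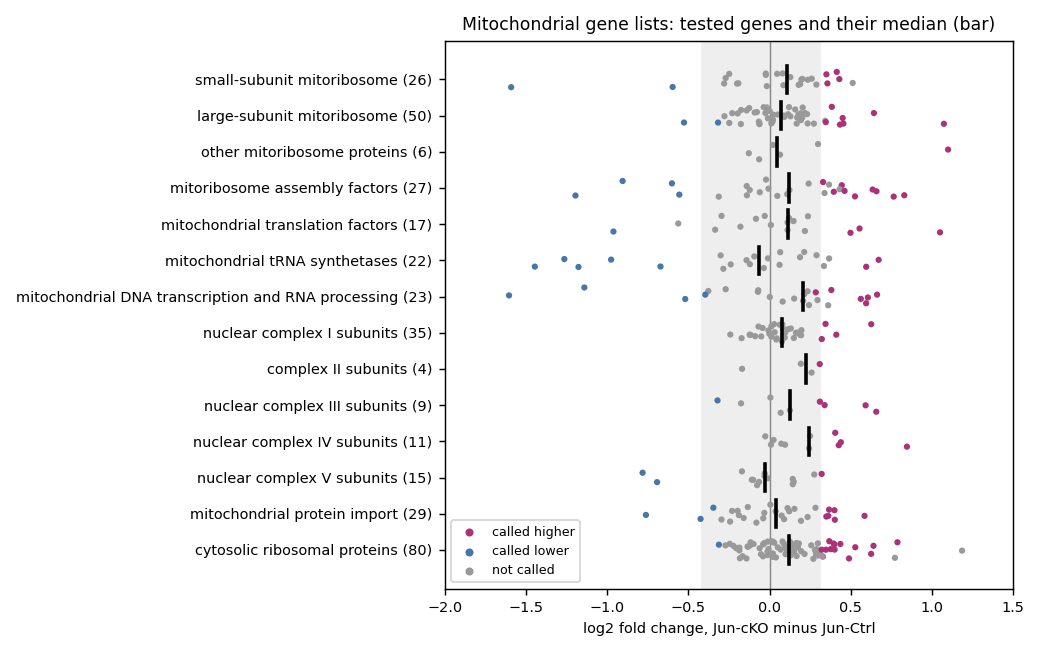
Log2 fold change of the tested genes of the mitoribosomal set of each other mitochondrial list and of the cytosolic ribosomal proteins, 1 point per gene coloured by call, with the median as a bar and the quartiles of all tested genes as a grey band. Medians lie between -0.06 and 0.24, and Rpl39l, at -4.60, lies beyond the axis.

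Among nuclear genes of the respiratory chain, whose partners the mitochondrial ribosome makes, complex I had 4 of 35 tested genes that rose and none that fell (median 0.08), complex III 4 of 9 and 1 (median 0.13), and complex IV 4 of 11 and none (median 0.24). Cox8a rose from 99.2 and 103 CPM to 185 and 178 CPM (0.85), and Uqcrc1 from 87.9 and 107 to 140 and 167 CPM (0.66). In complex II, Sdhd rose and the other 3 tested genes were not called. In the ATP synthase 1 of 15 rose and 2 fell (median -0.03), and both that fell, Atp5d (-0.69) and Atp5g2 (-0.78), lost their call with the GC correction. Of 29 import genes, 6 rose, among them Pmpcb (0.59), a subunit of the presequence protease, and 3 fell, among them the pore gene Tomm40 (-0.76; median 0.04). Of 11 regulators, Gabpa rose (0.47) and Ppargc1a (-1.66), Polrmt and Myc (-0.39) fell, while Nrf1 (0.21) and Yy1 (0.21) were not called. Gabpa (0.29) and Myc (-0.24) lost their call with the GC correction. Ppargc1a, a coactivator of mitochondrial biogenesis, stood at 15.4 and 13.5 CPM in Jun-Ctrl and at 4.72 and 4.43 CPM in Jun-cKO. Of 80 tested cytosolic ribosomal protein genes, 14 rose and 2 fell, with a median of 0.12. Beside each of these lists, the shares over all tested genes are 19% called higher and 22.5% called lower. With the GC correction the genes called higher numbered 8 of 35 in complex I, 2 of 29 import genes and 28 of 80 cytosolic ribosomal proteins. The share over all tested genes was then 20.8%.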

How the data were processed

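RNA of sorted lung lymphatic endothelial cells was amplified (RiboAmp HS PLUS), made into libraries with a DNA kit that does not mark strand and read at 79 bases, per the labels' protocols. The deposited table holds raw counts per gene. STAR 2.7.2a, featureCounts 1.6.4, edgeR 3.28.1 and mm10 are named without roles, per the submitters' processing notes, and the annotation used for counting is not given in the sources used here. Gene lengths in bases are the authors' deposited values.

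R 4.3.3 with edgeR 4.0.16 served for the test (quasi-likelihood fit, TMM, filterByExpr, Benjamini-Hochberg adjustment) of Jun-cKO minus Jun-Ctrl over 2 libraries each, without a block. In simulated counts for this comparison over 12656 genes, 52% of 1.5-fold and 81% of 2-fold changes were recovered, with 4 false calls. The simulation changed 200 genes and gave every gene the same relative variation between libraries. In the data 2408 genes were called higher and 2843 lower, so recovery and false calls there may differ from the simulated ones. Alternatives were other scalings and filters, DESeq2 1.42.0, limma-voom 3.58.1, a block, GC content and length as offsets (GENCODE M21, 96.3% of tested genes matched) and each library left out.

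The members and lists were chosen with earlier results of these data known. Named members are those called with groups that do not overlap, the 4 highest and 4 lowest per length, the Mrps18 paralogues and the role groups. Other lists give up to 2 called genes in each direction. Members that another analysis called are named by size of change and were chosen after their values were seen. The labels give no replicate numbers, only the word replicate in 2 titles. Promoter windows come from RefSeq (GRCm38.p6).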

Additional observations from a re-analysis of the deposited data

How the results depend on the processing

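Of the 15 genes called, Mrps5, Mrps11 and Mrpl52 were called in all 15 alternatives, and DESeq2 kept 6 of the calls. The number called higher was 3 with DESeq2, 20 with the GC correction, 21 with the GC correction and replicate block, and between 1 and 12 when 1 library was left out (8 without Jun-Ctrl 2, 12 without Jun-cKO 1). The number called lower was 7 with the GC and length correction. Calls in the other mitochondrial lists, 64 of 207 genes, were 42 with DESeq2 and 33 to 61 without 1 library. Where 1 library is left out, the lone one is assumed to vary like the other group, and fewer samples enter.

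The median log2 fold change of the members was 0.050 with upper-quartile scaling, 0.031 with library totals, 0.048 with a filter of 50 counts in 2 libraries, 0.019 with the GC and length correction and 0.038 to 0.091 without 1 library. The small minus large subunit difference of medians, 0.038, was -0.0019 with the stricter filter, 0.091 with the GC and length correction and -0.030 to 0.046 without 1 library. Why these moved was not tested.

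Some uncalled members changed sign. Mrpl14 (0.31) and Mrpl28 (0.35) did so with the GC correction and were then called higher. Mrpl38 was at 0.24 with the GC correction, 0.015 with GC and length and 0.23 with GC and block. Mrpl46 was at 0.068 with the GC correction and 0.061 with GC and block. Mrps18c was at -0.045 with the GC correction, -0.11 with GC and length and -0.044 with GC and block. Mrpl33 was at -0.0048 with GC and length. Mrpl18 was at -0.017 with upper-quartile scaling, -0.035 with library totals, -0.016 with the stricter filter and -0.046 with GC and length. Without 1 library the values ran from -0.10 to 0.15 for Mrpl18, -0.058 to 0.22 for Mrpl33, -0.14 to 0.036 for Mrpl46, -0.12 to 0.091 for Mrpl47, -0.044 to 1.22 for Mrps18b and -0.15 to 1.24 for Mrps36.

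With the word replicate in the titles as a replicate block, 12 members were called higher and 5 lower, and all 15 calls remained; the replicate differences of the 2 groups correlated at 0.07 over all tested genes and -0.07 over the members. At these depths 3 counts are 0.187 to 0.463 CPM. In the simulation, in which 200 genes changed, 52% of 1.5-fold changes were recovered, and the share in the data may differ.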

Other observations

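Among the tested genes within 50 kb of the members that changed by at least 1.5-fold, only Det1 rose. The other neighbours fell or were not called, beside 19% of all tested genes called higher and 22.5% called lower. These neighbours were looked up after the members' values were seen. Beside Mrps5, which fell, the tested neighbours were Mal, which fell (log2 fold change -1.12, edgeR quasi-likelihood adjusted p = 0.0033), and Zfp661, which was not called (0.25). Beside Mrpl52, which rose, the matrix metalloprotease gene Mmp14 fell (-0.89), and Slc7a7 (0.36) and Lrp10 (-0.09) were not called. Beside Mrps11, Det1 rose (0.86), Ntrk3 fell (-3.46) and Mrpl46 was not called. Beside Mrpl24, Hdgf (-0.44), Crabp2 (-1.17) and Nes (-2.68) fell, and Isg20l2, Prcc and Rrnad1 were not called.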
